A study of Homo sapiens with 6 samples.

Results

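The 8 genes described here, KDM1A, RCOR1, RCOR2, RCOR3, HMG20B, PHF21A, HDAC1 and HDAC2, encode the core of the LSD1-CoREST complex. They were taken by symbol from the 62703 genes counted in every library, and all 8 were abundant enough to be tested among 15797 genes. Bulk RNA was sequenced in 2 groups of MDA-MB-231 cells, an established line from a human breast tumour that lacks hormone receptors: 3 libraries with a control hairpin (shControl) and 3 in which a short hairpin lowered RNF20 (shRNF20). RNF20 is the ubiquitin ligase that, with RNF40, marks histone H2B in transcribed genes. The labels give no time after transduction, no hairpin sequence and no number of hairpins, and do not say whether cells were pools or clones or whether replicates were separate cultures. The p-values therefore measure only the spread between these libraries, which may be technical. The series title links RNF20 to stabilisation of LSD1 through the kinase CDK9, so the comparison asked whether the mRNAs of the complex differed when RNF20 was lowered.

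LSD1, encoded by KDM1A, is a flavin-dependent demethylase that removes methyl groups from histone H3. On nucleosomes it works together with a CoREST protein (RCOR1, RCOR2 or RCOR3), a scaffold that also holds the histone deacetylases HDAC1 or HDAC2. HMG20B binds DNA through a high mobility group box, and PHF21A carries a zinc finger that reads the unmethylated histone H3 tail. The assembled complex is brought to genes by DNA-binding repressors such as REST and the SNAI1 family, and is known for silencing neuronal genes outside the nervous system.

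The 4 stretches of promoter sequence that follow are shown because these genes gave the contrasting results: RCOR1 and RCOR3 are paralogs that moved in opposite directions, HMG20B had the largest fall among the abundant members, and KDM1A did not pass. They come from the RefSeq promoter table (GRCh38.p14), which held 7 of the 8 members, and run 5′ to 3′ on the gene's strand. Each is the longest stretch, within the 250 bases before the RefSeq start nearest the GENCODE 29 gene start, that lies in no GENCODE 29 exon. That RefSeq start was at most 25 bases from the gene start for RCOR1 and KDM1A. It lay 167 bases inside the gene for HMG20B and 989 bases inside for RCOR3. For HDAC2, whose sequence is not shown, it lay 40160 bases inside. Capitals mark GC boxes (GGGCGG) and CCAAT boxes (CCAAT), on either strand. The stretches are chr14:102592399-102592648 for RCOR1, chr1:211259116-211259278 for RCOR3, chr19:3572694-3572776 for HMG20B and chr1:23019218-23019442 for KDM1A, all on the plus strand.
RCOR1: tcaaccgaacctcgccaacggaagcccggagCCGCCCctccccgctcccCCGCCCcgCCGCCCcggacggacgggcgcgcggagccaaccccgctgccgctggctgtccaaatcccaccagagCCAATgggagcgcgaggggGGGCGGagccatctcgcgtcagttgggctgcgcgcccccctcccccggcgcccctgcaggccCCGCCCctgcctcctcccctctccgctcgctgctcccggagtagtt
RCOR3: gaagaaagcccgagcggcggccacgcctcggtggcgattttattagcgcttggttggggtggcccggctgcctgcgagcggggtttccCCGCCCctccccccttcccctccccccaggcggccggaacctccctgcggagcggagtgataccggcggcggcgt
HMG20B: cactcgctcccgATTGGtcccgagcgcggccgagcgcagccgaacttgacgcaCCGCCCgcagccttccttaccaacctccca
KDM1A: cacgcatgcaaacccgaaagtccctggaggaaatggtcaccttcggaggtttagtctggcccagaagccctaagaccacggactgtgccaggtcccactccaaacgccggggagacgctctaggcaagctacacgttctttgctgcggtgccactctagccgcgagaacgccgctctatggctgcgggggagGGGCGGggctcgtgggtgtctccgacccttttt
The 4 stretches are rich in G and C whichever way the gene moved. Over the whole 250 bases, the 7 members with an entry had a GC content of 63.2% to 84.0% (median 72.4%), against a median of 58.0% over 35116 promoter entries. Their ratio of observed to expected CpG had a median of 0.899, against 0.558 over all entries. A GC box was found in 6 of the 7 windows (HDAC2 lacked one) and in 42.6% of all windows of that length. A CCAAT box was found in 3 of 7, those of HDAC1, RCOR1 and HMG20B, and in 32% of all windows. None of the 7 held the letters TATAAA, which 10.7% of all windows did. RCOR3, which rose, and RCOR1, HMG20B and PHF21A, which fell, all held GC boxes. The windows of RCOR1 and HMG20B held a CCAAT box, and those of RCOR3 and PHF21A did not. This depends on the start chosen: another RCOR3 entry, 1570 bases inside the gene, held a CCAAT box. Another PHF21A entry, 359 bases inside, held no GC box. A link between these letters and the direction was not tested. Matches describe the sequence only.

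RNF20 mRNA stood at 57.8, 58.5 and 58.0 CPM (TMM-scaled counts per 1e6 counts) in the shControl libraries and at 14.1, 12.2 and 11.1 CPM in the shRNF20 libraries. Gene counts totalled 21988826 to 29685306 per library. The shRNF20 libraries were much closer to each other than the shControl libraries: chi-square per gene, which is 1 for counting error alone, was 1.99 to 6.17 between pairs of shRNF20 libraries and 28.6 to 45.9 between pairs of shControl libraries. A test that treats the 3 shRNF20 libraries as 1 summed sample is therefore given with the calls and counts, except for the cell type markers. Mitochondrially encoded RNA took 0.934% to 1.38% of gene counts in shControl and 4.91% to 6.22% in shRNF20, and the members' calls were the same without those genes. The 6 markers of MDA-MB-231 (VIM, CD44, EGFR, CAV1, AXL and MSN) summed to 4437 to 4970 CPM in shControl versus 3378 to 3395 CPM in shRNF20. The 6 leukocyte markers summed to at most 2.96 and 3.995 CPM. The 7 fibroblast and endothelial markers summed to 18.3 to 21.6 and 30.7 to 32.7 CPM, mostly COL1A1. Among them PECAM1, an endothelial adhesion molecule, fell from 5.12 ± 1.56 to 0.66 ± 0.06 CPM, and the defining markers CDH5 and VWF were at most 0.118 and 0.355 CPM in any library. The 7 luminal and receptor markers summed to 136.9 to 152.9 CPM in shControl and 177.4 to 182.1 CPM in shRNF20. Of 5 tested, 3 were higher and 1 lower, beside 28.7% and 29.8% of all genes tested. ERBB2 (102 ± 9.07 to 139 ± 1.49 CPM) and EPCAM (13.5 ± 2.24 to 21.1 ± 0.42 CPM) rose, and CDH1 fell (18.2 ± 6.97 to 6.99 ± 0.60 CPM). ESR1 was also called higher (0.10 ± 0.10 to 1.44 ± 0.21 CPM). It had 3, 5 and 0 counts in shControl and entered the test through its shRNF20 counts (33, 37 and 39), so its call rests in part on that selection. The part of these markers in the results was not tested, and the genes named from them were chosen after their values were seen.

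In shRNF20, KDM1A and both deacetylase genes gave no call, 4 members fell and 1 rose. HMG20B, PHF21A, RCOR1 and RCOR2 fell, and RCOR3 rose (edgeR's quasi-likelihood test, Benjamini-Hochberg adjusted p below 0.05). RCOR2, the scarcest member, entered the test through its shControl counts, where it was higher. Of all genes tested, 58.4% passed, 28.7% higher and 29.8% lower, so 5 of 8 is close to the share for any gene. The median log2 fold change of the 8 was -0.23, beside -0.01 over all genes tested. The groups did not overlap for the same 5 members, beside 66.3% of all genes. In bulk RNA, less of a transcript per cell and fewer cells that make it cannot be told apart. With shRNF20 as 1 summed sample, where 19.3% of genes passed (10.1% higher and 9.28% lower), HMG20B alone of the 8 passed. At an unadjusted p below 0.05 that fit had 1 member higher and 3 lower, beside 36.8% of all genes (19.0% higher and 17.8% lower).

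**Figure D1:**
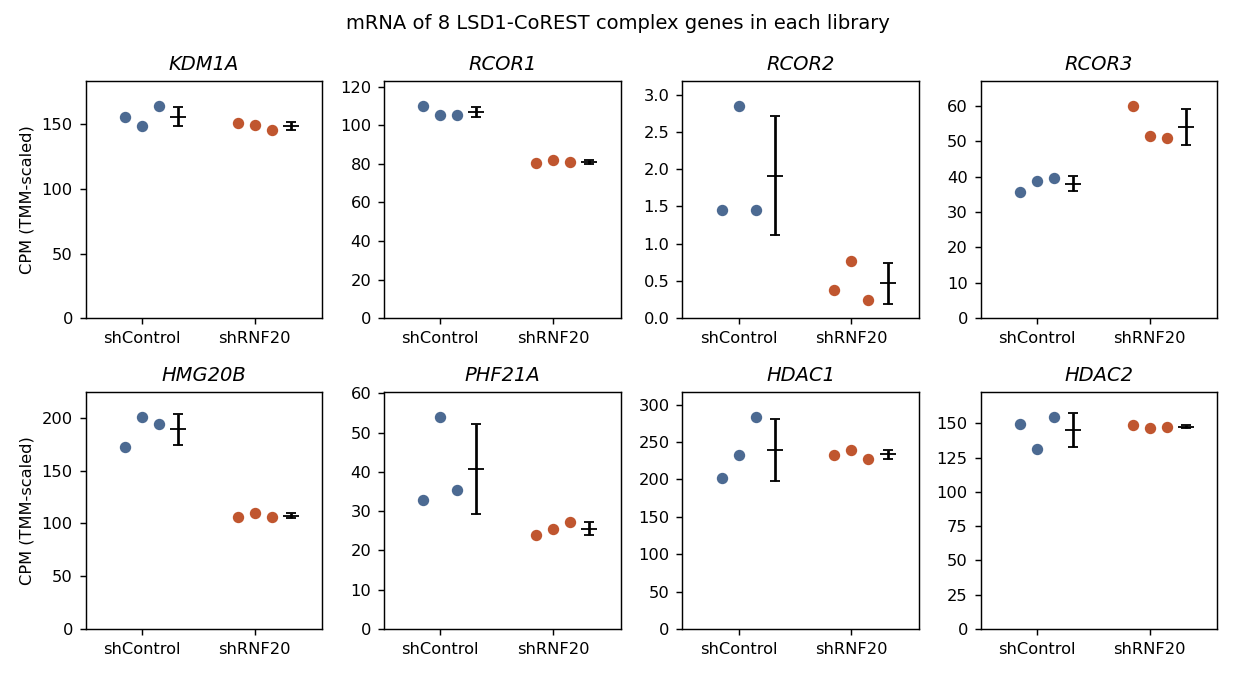
Level of each of the 8 members in every library (points, CPM after TMM scaling, axis from 0), with the mean and SD of the 3 libraries beside each group. The shRNF20 points lie below every shControl point for RCOR1, RCOR2, HMG20B and PHF21A, above them for RCOR3, and overlap with them for KDM1A, HDAC1 and HDAC2.

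Among the members, levels per kilobase of exon spanned a wide range. In shControl, HDAC1 was highest at 60.4 ± 10.4 CPM per kilobase (SD, n = 3), followed by HMG20B at 49.0 ± 3.89, KDM1A at 28.7 ± 1.37 and RCOR1 at 17.2 ± 0.42. HDAC2 stood at 9.37 ± 0.80, RCOR3 at 4.18 ± 0.23, PHF21A at 3.64 ± 1.03 and RCOR2 at 0.70 ± 0.29 CPM per kilobase. The ranges of HDAC1 and HMG20B overlapped, as did those of RCOR3 and PHF21A, so neither pair can be ordered. In shRNF20 the means kept this order, with HDAC1 at 58.8 ± 1.55 and RCOR2 at 0.17 ± 0.10 CPM per kilobase. HMG20B (27.9 ± 0.57) then overlapped with KDM1A (27.3 ± 0.56), whereas RCOR3 (5.94 ± 0.55) and PHF21A (2.28 ± 0.14) no longer overlapped. Lengths are unions of all GENCODE 29 exons, which for HDAC2 (15461 bases) include those of alternative transcripts, so its level per kilobase may be understated.

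KDM1A, the demethylase itself, had 155, 149 and 164 CPM in the shControl libraries and 151, 150 and 145 CPM in the shRNF20 libraries. The groups overlapped. Its log2 fold change was -0.07 (SE 0.07, edgeR adjusted p = 0.397), with a 95% interval from -0.22 to 0.08. The gene (ENSG00000004487.18) lies on chromosome 1, 23019443 to 23083689 in GRCh38, and shares no exon with another gene in GENCODE 29. Its difference was smaller in size than that of all but 7.70% of the genes tested. KDM1B, the paralogous demethylase, named here after its value was seen, stood at 44.8 ± 1.13 CPM in shControl versus 44.9 ± 2.66 CPM in shRNF20 (edgeR adjusted p = 0.963). CDK9, the kinase of the series title, fell from 67.3 ± 3.56 to 50.9 ± 1.43 CPM, for a log2 fold change of -0.40 with SE 0.07 (edgeR adjusted p = 0.00184), a call lost with shRNF20 as 1 summed sample (adjusted p = 0.139). These are mRNA levels, and the data used here hold no measure of LSD1 protein.

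The CoREST scaffold genes moved apart. RCOR1, the founding and most abundant paralog, had 110, 105 and 105 CPM in shControl versus 80.3, 82.1 and 80.8 CPM in shRNF20. Every shRNF20 library was lower, and the fall was 1.32-fold, for a log2 fold change of -0.40 with SE 0.06 (edgeR adjusted p = 8.90e-04). RCOR3 had 35.7, 38.6 and 39.7 CPM in shControl versus 59.8, 51.4 and 50.9 CPM in shRNF20. Every shRNF20 library was higher, by 1.42-fold on average, for a log2 fold change of 0.51 with SE 0.09 (edgeR adjusted p = 0.00182). RCOR2, known from embryonic and neural cells, was scarce, with 43, 72 and 34 counts in shControl and 10, 17 and 7 counts in shRNF20. It fell 4.17-fold, for a log2 fold change of -2.06 with SE 0.47 (edgeR adjusted p = 0.00537). The 95% interval from -3.13 to -0.99 reflects the few counts. RCOR2 entered the test through its shControl counts, the group where it was higher, so its call rests in part on that selection. With shRNF20 as 1 summed sample, RCOR1, RCOR3 and RCOR2 did not pass (edgeR adjusted p = 0.121, 0.0654 and 0.0609) while their log2 fold changes were -0.37, 0.53 and -2.07.

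The mixture of CoREST transcripts differed accordingly. Per kilobase of exon, RCOR1 made up 79.9%, 76.2% and 77.6% of the 3 paralogs in shControl and 65.8%, 69.0% and 69.6% in shRNF20. RCOR3 made up 17.7%, 19.1% and 20.0% in shControl and 33.5%, 29.5% and 29.9% in shRNF20. RCOR2 held 3.16% ± 1.31 in shControl and 0.89% ± 0.52 in shRNF20. Within each library, where scaling between libraries plays no part, the ratio of RCOR3 to RCOR1 was 0.22, 0.25 and 0.26 in shControl and 0.51, 0.43 and 0.43 in shRNF20. The ratio was 1.87-fold higher in shRNF20 and the groups did not overlap. By an exact two-sided permutation test p was 0.1, as low as 3 against 3 libraries allow, and 0.3 after adjustment over the 3 ratios computed.

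**Figure D2:**
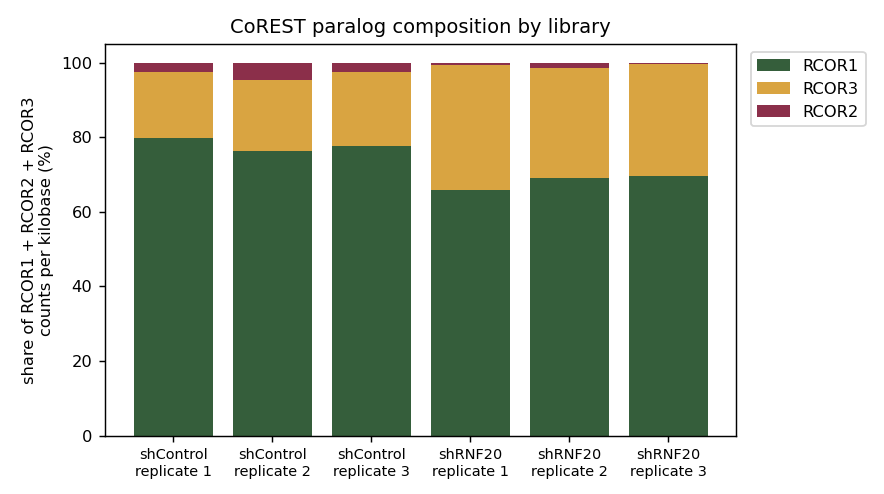
Share of each CoREST paralog in the sum of RCOR1, RCOR2 and RCOR3 counts per kilobase of exon (stacked bars, percent), 1 bar per library. RCOR3 takes 17.7% to 20.0% in the shControl libraries and 29.5% to 33.5% in the shRNF20 libraries.

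The DNA-binding subunit gene HMG20B had the largest fall among the abundant members. It stood at 172, 201 and 194 CPM in shControl versus 106, 110 and 106 CPM in shRNF20, so every shRNF20 library was lower. The fall was 1.76-fold, for a log2 fold change of -0.82 with SE 0.08 (edgeR adjusted p = 6.31e-05), and 16.5% of all genes tested had a more negative log2 fold change. It also passed with shRNF20 as 1 summed sample (log2 fold change -0.79, edgeR adjusted p = 0.0222). HMG20B (ENSG00000064961.19, chromosome 19, 3572777 to 3579088) shares 369 of its 3857 exon bases with MFSD12 on the opposite strand, and reads there are counted for neither gene. Summing the 2 strand columns, which adds reads of both genes in the shared part, raised its counts 1.32-fold and gave a log2 fold change of -0.78. MFSD12, named after its values were seen, rose, for a log2 fold change of 0.38 with SE 0.07 (edgeR adjusted p = 0.00149), a call lost with shRNF20 as 1 summed sample (adjusted p = 0.0932).

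PHF21A, the histone-tail reader, had 32.9, 54.0 and 35.5 CPM in shControl versus 24.0, 25.4 and 27.2 CPM in shRNF20. The lowest shControl library was above the highest shRNF20 library, and shControl replicate 2 was well above the other shControl libraries. PHF21A fell, for a log2 fold change of -0.67 with SE 0.18 (edgeR adjusted p = 0.0111). Without shControl replicate 2 the log2 fold change was -0.44, and with shRNF20 as 1 summed sample the call was lost (adjusted p = 0.163).

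The deacetylase genes HDAC1 and HDAC2 gave no call. HDAC1 stood at 202, 233 and 283 CPM in shControl versus 233, 240 and 227 CPM in shRNF20, for a log2 fold change of -0.04 with SE 0.11 (edgeR adjusted p = 0.800). The spread among shControl libraries contained all 3 shRNF20 libraries, and the 95% interval ran from -0.30 to 0.23. HDAC2 stood at 149, 131 and 154 CPM in shControl versus 149, 146 and 147 CPM in shRNF20, for a log2 fold change of 0.03 with SE 0.08 (edgeR adjusted p = 0.785, 95% interval -0.15 to 0.20). The sign of HDAC1 turned without shControl replicate 3 (0.09), and that of HDAC2 without shControl replicate 2 (-0.06) or without a filter on low counts (-0.01). HDAC1 took 84.1% to 87.7% of the HDAC1 and HDAC2 counts per kilobase in shControl and 85.7% to 86.5% in shRNF20. The ratio of HDAC2 to HDAC1 was 0.16 ± 0.03 and 0.16 ± 0.01 (exact two-sided permutation p = 0.9, adjusted 0.9), and the direction of that difference turned without shControl replicate 2 or 3.

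**Figure D3:**
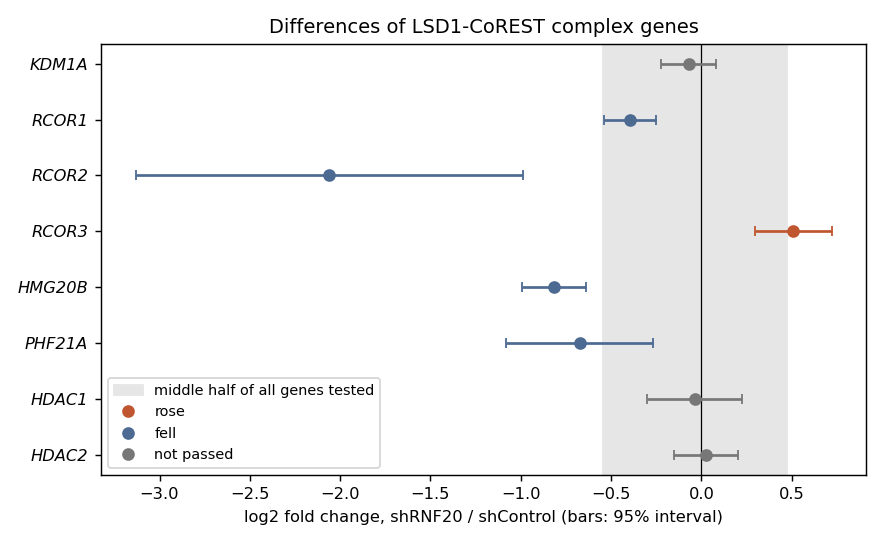
Log2 fold change of each member, shRNF20 over shControl (points), with 95% intervals from edgeR's quasi-likelihood fit (bars). The shaded band is the interquartile range of all genes tested (-0.55 to 0.48). HMG20B, PHF21A and RCOR2 lie to the left of it and RCOR3 just to the right.

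The genes with the most similar profiles were taken as those with the highest Pearson correlation of log2-CPM over the 6 libraries, among 9930 genes whose log2-CPM averaged at least 3. The 6 points are in 2 groups that share libraries and depth, so the values are descriptions. For KDM1A these were ME2 (r = 0.995), UBXN11 (r = 0.992) and NUP88 (r = 0.984). For HMG20B they were TIMMDC1 (r = 0.9996), RAC2 (r = 0.999) and AKR7A2 (r = 0.999). For RCOR3 they were TMED7 (r = 0.993), DMAP1 (r = 0.992) and METTL5 (r = 0.992). With the sum of the strand columns, the values of UBXN11, NUP88 and METTL5 were 0.714, 0.392 and 0.148.

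Further proteins associate with LSD1 and CoREST, and counts over these and the related lists stand beside 58.4% of all genes that passed, or 19.3% with shRNF20 as 1 summed sample. Of 8 such genes tested, 4 fell and 2 rose (median log2 fold change -0.25). GSE1, a coiled-coil partner of the complex, had 78.0, 125 and 103 CPM in shControl versus 52.2, 55.3 and 47.8 CPM in shRNF20, for a log2 fold change of -0.98 with SE 0.16 (edgeR adjusted p = 8.61e-04). CTBP2, a corepressor that bridges repressors to LSD1, fell from 101 ± 2.27 to 79.9 ± 3.38 CPM (log2 fold change -0.34), a call lost with summed shRNF20 (adjusted p = 0.178). ZNF217 also fell, and those that rose were ZMYM2 and RREB1, all 3 named after their values were seen. The summed fit left 0 that rose and 1, GSE1, that fell. Without shRNF20 replicate 1, 1 of the list rose.

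Of 13 DNA-binding proteins that recruit the complex, 8 were tested, and 3 rose and 1 fell (median 0.15). ZEB1, a zinc finger repressor of epithelial genes, fell from 89.0 ± 6.56 to 55.3 ± 2.71 CPM, for a log2 fold change of -0.69 with SE 0.08 (edgeR adjusted p = 1.89e-04). NR2C1, an orphan nuclear receptor, rose from 27.8 ± 2.65 to 38.7 ± 2.43 CPM (log2 fold change 0.48). The other 2 that rose, SNAI1 and GFI1, named after their values were seen, were at or below 3.02 CPM in both group means. All 3 rises were lost with summed shRNF20 (NR2C1 adjusted p = 0.110), and ZEB1 still passed. Without shControl replicate 3, shRNF20 replicate 1 or shRNF20 replicate 3, 1 recruiter rose in each case, and 2 fell without shControl replicate 3. REST, the repressor of neuronal genes, also named after its values were seen, gave no call (67.4 ± 2.41 CPM in shControl versus 67.3 ± 3.91 CPM in shRNF20, edgeR adjusted p = 0.984).

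Genes silenced by REST in non-neuronal cells were mostly scarce. Of 29, 15 were tested and 4 had no count in any library, and 6 rose and 4 fell (median 0.47). SCG2, a secretory granule protein, had 2.44, 1.66 and 0.724 CPM in shControl versus 6.96, 6.86 and 9.31 CPM in shRNF20, a rise of 2.24 on the log2 scale (SE 0.36, edgeR adjusted p = 9.42e-04). TUBB3, a neuronal tubulin, rose from 0.67 ± 0.39 to 2.57 ± 0.42 CPM (log2 fold change 1.97), a call lost with summed shRNF20 (adjusted p = 0.0718). That fit left 1 gene that rose, SCG2, and 0 that fell. In this list 2 genes fell without shControl replicate 2, shRNF20 replicate 2 or shRNF20 replicate 3.

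HDAC1 and HDAC2 also serve other complexes, whose genes moved in both directions. Of 13 genes of NuRD, the nucleosome remodelling and deacetylase complex, 5 rose and 2 fell (median 0.12). The rises include CHD5, with 9, 2 and 6 counts in shControl and 23, 13 and 19 in shRNF20. CHD5, named after its values were seen, entered the test through its shRNF20 counts. GATAD2A and its paralog GATAD2B, linker subunits, rose from 218 ± 20.2 to 304 ± 7.30 CPM and from 70.9 ± 3.39 to 91.0 ± 1.25 CPM. All 5 rises were lost with summed shRNF20 (adjusted p = 0.0692 for GATAD2A and 0.113 for GATAD2B). The 2 falls, CHD3 and RBBP4, named after their values were seen, were near the threshold (edgeR adjusted p = 0.0491 and 0.0451). Both calls were lost with upper quartile scaling, a stricter filter on low counts, the sum of the strand columns, a replicate block, shRNF20 as 1 summed sample, without shControl replicate 3 and without any 1 shRNF20 library. With RLE scaling, limma-voom, no filter on low counts or without shControl replicate 1, 1 NuRD gene fell. Of 17 tested SIN3 genes 3 rose and 6 fell (median -0.03), and SAP18 and MORF4L1, with the smallest p, rose by 0.60 and 0.54 on the log2 scale. With summed shRNF20, 2 SIN3 genes rose and 1 fell. Of 7 genes of MiDAC and related proteins 3 rose and 2 fell (median 0.07), against 2 and 2 with summed shRNF20. RERE, a corepressor with the same ELM2 and SANT domains as CoREST, fell from 145 ± 16.1 to 54.5 ± 3.61 CPM, for a log2 fold change of -1.42 with SE 0.10 (edgeR adjusted p = 1.74e-05), and MIER3, another such protein, rose from 31.7 ± 3.59 to 63.9 ± 4.08 CPM.

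Of the 9 other zinc-dependent deacetylases, 3 rose and 3 fell (median -0.22). The rises include HDAC10, with 5, 13 and 2 counts in shControl and 22, 30 and 38 in shRNF20. HDAC10, named after its values were seen, entered the test mainly through its shRNF20 counts. HDAC3, the class I enzyme of the NCoR complex, stood at 65.7, 59.8 and 64.0 CPM in shControl versus 105, 110 and 105 CPM in shRNF20, for a log2 fold change of 0.75 with SE 0.07 (edgeR adjusted p = 5.75e-05). HDAC4, a class II enzyme, fell from 23.5 ± 0.81 to 9.65 ± 0.97 CPM (log2 fold change -1.29). These were the 1 that rose and the 1 that fell with summed shRNF20.

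Of 6 tested genes for enzymes known to set LSD1 protein turnover, 4 fell and 1 rose (median -0.45). OTUB2, a deubiquitinase, had 93.5, 99.5 and 133 CPM in shControl versus 36.1, 36.5 and 40.0 CPM in shRNF20, for a log2 fold change of -1.53 with SE 0.13 (edgeR adjusted p = 4.36e-05). USP28, a deubiquitinase that stabilises LSD1, fell from 44.7 ± 2.55 to 26.0 ± 0.77 CPM, for a log2 fold change of -0.79 with SE 0.09 (edgeR adjusted p = 1.17e-04). USP7, another deubiquitinase, and JADE2, a ubiquitin ligase for LSD1, also fell (-0.37 and -0.54), and USP22, a deubiquitinase, rose (0.28). These last 3 were named after their values were seen. With shRNF20 as 1 summed sample, OTUB2 and USP28 passed, and the calls of USP7, JADE2 and USP22 were lost, which left 2 that fell and 0 that rose. Without shControl replicate 1 the count that rose was 2. Of the genes named by the smallest p in the other lists, GSE1, ZEB1, SAP18, MORF4L1, RERE, MIER3, HDAC3, HDAC4 and SCG2 also passed in that fit.

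Under 16 other ways of processing the counts, the differences of the 5 members that passed kept their direction, with HMG20B between -0.90 and -0.78, RCOR1 between -0.44 and -0.36 and RCOR3 between 0.42 and 0.54 on the log2 scale. The ranges of PHF21A (-0.83 to -0.44) and RCOR2 (-2.60 to -1.69) were wider. KDM1A did not pass under any of the 16, at -0.13 to -0.03.

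**Figure D4:**
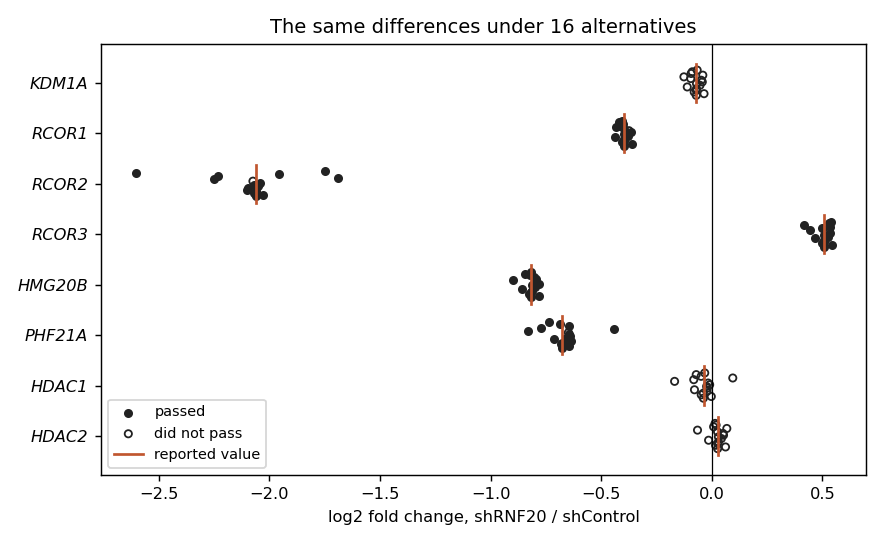
Log2 fold change of each member under each of 16 alternatives (filled circles passed at an adjusted p below 0.05, open circles did not), with the reported value as a line. The open circles of RCOR1, RCOR2, RCOR3 and PHF21A are the fit with shRNF20 as 1 summed sample.

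**Figure D5:**
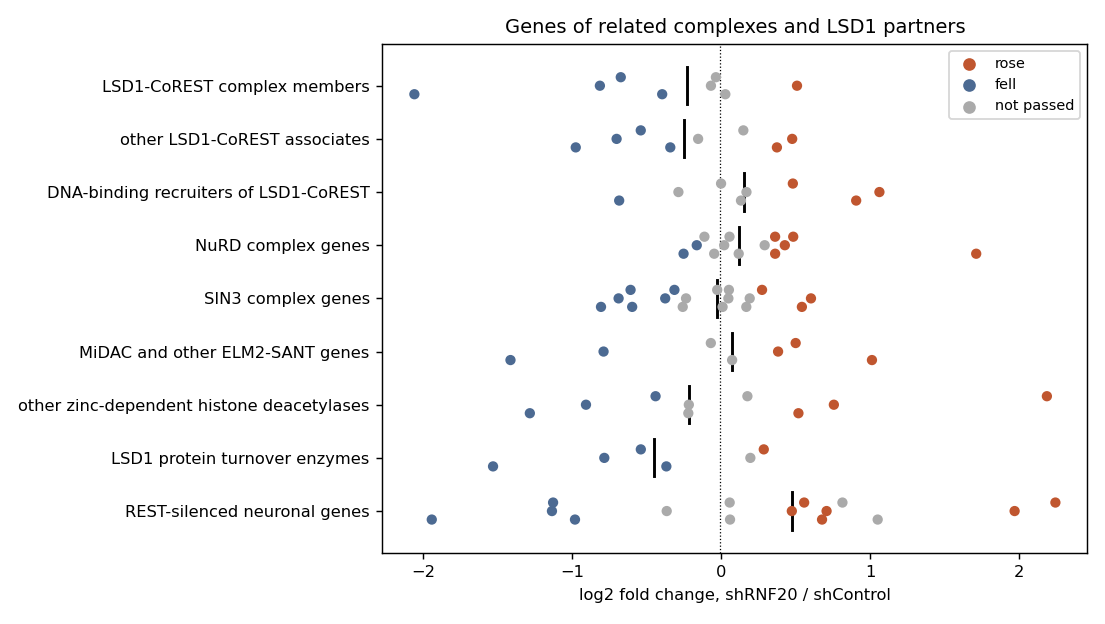
Log2 fold change of every tested gene in the 8 members and in 8 related lists (points, coloured by call), with each list's median (black bar) and the median of all genes tested (dotted line). The calls lie on both sides in every list, and the lowest median is that of the LSD1 turnover enzymes (-0.45).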

How the data were processed

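Per the submitters' processing notes, reads were checked with FastQC 0.12.1 and aligned with STAR 2.7.11a to hg38. Which annotation was used is not given in the sources used here. Raw read counts per gene, without strand and for each strand, are what the authors deposited, and the first kind was used. Lines naming no gene held 20.9% to 24.1% of reads and were left out, among them reads over exons of more than 1 gene (10.7% to 11.2%), so overlapping genes are underestimated. Symbols matched 62686 of 62703 genes.

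After filterByExpr (minimum count 10) and TMM scaling, genes were tested in edgeR 4.0.16 (quasi-likelihood, robust, R 4.3.3), shRNF20 against shControl, Benjamini-Hochberg over 15797 genes, threshold 0.05. SEs are the log2 fold change over the root of F. Ratios were tested by exact permutation. Steps were tested on simulated data. For the edgeR fit these had the same spread between libraries in both groups, so the unequal spread seen here was not covered. Alternatives used DESeq2 1.42.0, limma 3.58.1 (voom), RLE and upper quartile scaling, other filters, strand sums, a replicate block, summed shRNF20 libraries, no mitochondrial genes and each library left out.

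Named genes are the members, RNF20, CDK9, the 2 smallest p of each list and the 3 most correlated genes of 3 members. Others were named after their values were seen. Members and lists were chosen with earlier results of these data known. Results on some genes of these lists are not reported here.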

Additional observations from a re-analysis of the deposited data

How the results depend on the processing

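Over the 16 alternatives, the members' calls and directions were the same except as follows. With the shRNF20 libraries summed to 1 sample, 0 members rose and 1 fell, and over all genes 1753 rose and 1619 fell. That fit has no replicates of shRNF20 and takes its spread from shControl. The log2 fold change of HDAC1 turned to 0.095 without shControl replicate 3 (-0.168 to 0.095 with 1 library left out). That of HDAC2 turned to -0.0644 without shControl replicate 2 (-0.0644 to 0.068 with 1 left out) and to -0.0144 with no filter on low counts. Leaving out each library gave 3617 to 4755 genes that rose and 3906 to 5022 that fell, with 1 member rising and 4 falling each time. The log2 change of the ratio of RCOR3 to RCOR1 was 0.82 to 0.94 with 1 library left out, and that of HDAC2 to HDAC1 -0.03 to 0.19, with -0.0046 without shControl replicate 2 and -0.027 without shControl replicate 3.

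Pairing by replicate number was not seen: deviations from the group means correlated at -0.02, 0.04 and 0.03 between same-numbered libraries. The most correlated shRNF20 library had the same number for shControl replicates 2 and 3, but not for replicate 1. The labels do not say whether same-numbered libraries were made together. With replicate number as a block, 4418 genes rose and 4518 fell, and 1 member rose and 4 fell. Under the block, 2 REST-silenced genes fell instead of 4, and the 2 falls of NuRD genes were lost. The other named genes kept their calls in 312 cases and lost them in 8, all in the summed fit. Counts over the 8 related lists were within 1.5 times of the reported ones in 220 of 256 cases, and 12 of the other 36 came from the summed fit. Depth limits RCOR2, at 7 to 72 counts per library, and the REST-silenced genes, most of which were at a few CPM or less.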
